A study of Mus musculus with 5 samples.

Results

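The genes described here are those whose symbols begin with Psma, Psmb, Psmc, Psmd, Psme, Psmf or Psmg followed by a digit, the naming scheme of the proteasome. This rule took 48 of the 17325 genes that a probe set with exactly 1 gene symbol measured on 5 arrays of mouse pro-B cells. Where a gene had several probe sets, the one with the highest mean log2 value over the arrays stood for it, and *Psmg2*, with 2, was the only such case among the 48. Of the 48 genes, 46 encode proteasome subunits, activators, an inhibitor or assembly chaperones, while *Psmc3ip*, a cofactor of recombinases, and *Psme3ip1*, a binding partner of the *Psme3* product, share only the name. The probe set of *Psme2* is listed for *Psme2b* as well, and so *Psme2* is not among the 48.

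Pro-B cells were sorted by FACS as B220+IgM-CD43+CD24+ cells from the bone marrow of mice aged 9 months, and their RNA was hybridised to Affymetrix Mouse Genome 430 2.0 arrays, 1 sample on each. The 2 *Mef2c*-deficient samples were Vav-Cre *Mef2c* fl/fl, where Cre under the Vav promoter recombines *Mef2c*, the gene of a MADS-box transcription factor, throughout haematopoietic cells and so upstream of the B lineage too. The 3 control samples are labelled only as control, and by the study's methods control mice were age-matched and carried *Mef2c* fl/fl or *Mef2c* fl/+ without Cre, or Vav-Cre with *Mef2c* fl/+. Labels and methods do not state which of these genotypes each control array stands for. They also do not give the sex of each sample or whether a sample pooled several mice. The p-values therefore measure the spread between these samples. The study included male and female mice. *Xist*, a transcript of female cells, had a log2 fold change of 3.34 between *Mef2c*-deficient and control samples. The part of sex in the results was not tested.

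The proteasome is the protease that degrades ubiquitin-tagged proteins in the cytosol and nucleus. Its barrel-shaped core particle is a stack of alpha and beta rings, with the proteolytic sites inside on the beta subunits encoded by *Psmb5*, *Psmb6* and *Psmb7*. In lymphoid and other haematopoietic cells, and in other cells exposed to interferon-gamma, the products of *Psmb8*, *Psmb9* and *Psmb10* can take these places and form the immunoproteasome, which cuts more peptides suited to MHC class I. A regulatory particle caps the core. Its base holds the ring of ATPases that unfolds the substrate, and its lid holds the deubiquitinase that removes the tag. Dedicated chaperones build both particles, and the transcription factors encoded by *Nfe2l1* and *Nfe2l2* act on many subunit genes through the antioxidant response element.

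The sequence upstream of 4 catalytic subunit genes is shown because they are pairs in which 1 subunit replaces another. The third pair, *Psmb7* and *Psmb10*, is left out because *Psmb7* has no entry in the table used. Each line gives the 100 bases before a start site in the RefSeq promoter table for GRCm38.p6, 5′ to 3′ on the strand of the gene, with the core of the antioxidant response element, TGACNNNGC read on either strand, in capitals. The stretches are chr14:54617996-54618095 on the minus strand for *Psmb5*, chr11:70525257-70525356 on the plus strand for *Psmb6*, chr17:34198095-34198194 on the plus strand for *Psmb8* and chr17:34187331-34187430 on the minus strand for *Psmb9*.
Psmb5: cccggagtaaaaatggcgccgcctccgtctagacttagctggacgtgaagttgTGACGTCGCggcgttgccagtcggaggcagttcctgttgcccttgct
Psmb6: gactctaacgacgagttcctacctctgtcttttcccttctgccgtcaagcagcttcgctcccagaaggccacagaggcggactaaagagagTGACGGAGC
Psmb8: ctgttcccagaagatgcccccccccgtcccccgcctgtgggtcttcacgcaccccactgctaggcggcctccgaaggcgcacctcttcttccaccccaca
Psmb9: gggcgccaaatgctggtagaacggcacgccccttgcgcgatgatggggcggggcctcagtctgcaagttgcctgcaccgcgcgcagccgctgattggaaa
The constitutive genes *Psmb5* and *Psmb6* each held 1 match in this stretch, and the immunoproteasome genes *Psmb8* and *Psmb9* held none.

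Promoter windows of 300 bases, 250 before and 50 after a start site, were given for 40 of the 48 genes, in 43 windows. There was no entry for *Psma8*, *Psmb1*, *Psmb2*, *Psmb7*, *Psmc3*, *Psmd3*, *Psmd7* and *Psmg2*. Each motif was searched on both strands. TGACNNNGC was present in 11.6% of the members' windows and in 12.4% of all 32851 windows, and its 5 genes were *Psmb5*, *Psmb6*, *Psmc6*, *Psmd9* and *Psmd12*. CCAAT, the box bound by NF-Y, was present in 37.2% of the members' windows and 37.4% of all. GGGCGG, the GC box bound by Sp factors, was present in 51.2% and 35.7%. The core of the interferon-stimulated response element, GAAA repeated after a gap of 2 bases, was present in 11.6% and 3.44%, in the windows of *Psmb3*, *Psmd4*, *Psmd9*, *Psme1* and *Psmg4*. For the factor deleted here, a loose form, CTA and TAG with 4 bases between them, was present in 4.65% of the members' windows, those of *Psma2* and *Psmb5*, and in 3.69% of all, while the MEF2 consensus was in none of the members' windows and in 3.19% of all. The last 2 patterns can match the same bases, and matches of different motifs could overlap. These are matches of letters in windows that include overlapping start sites of 1 gene, and nothing on the binding of a factor follows from them.

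The values are deposited RMA intensities, whose range fits powers of e with the RMA log2 signal as exponent, and a deposited fold of 2 then stands for 1.62-fold in signal. A gene was called lower or higher where limma gave a deposited fold change of at least 2 with an unadjusted p of at most 0.05. The study names the same figures. If its fold is one in signal, the cut used here is looser than the study's. At a fold of 2 in signal, 11 of the 48 genes were called lower rather than 23. No gene of the array passed an adjusted p of 0.05, and among the 48 the adjusted p ran from 0.0895 to 0.48, with 31 at an unadjusted p under 0.05 and 15 at an adjusted p under 0.1. *Mef2c* itself read 14006, 20854 and 17220 on the control arrays and 7379 and 6219 on the *Mef2c*-deficient arrays, and where its probe set lies relative to the deleted part of the gene is not stated by labels or methods.

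The 9 measured of 13 pro-B markers were all above the array median on every array, with summed intensities of 511406 to 1197099.7 in control and of 740549 and 561359 in *Mef2c*-deficient pro-B cells. Within the list, the log2 fold change was below 0 for 7 markers, none was called, and the median was −0.85, with *Ebf1* at 29295 to 35416 in control and 29295 and 3026 in *Mef2c*-deficient samples and *Blnk* at 18899 to 41783 and at 25010.0 and 2661. The median deviation of the 9 from their means over the arrays was 1.18 on control replicate 3 and −0.51 to 0.16 on the other arrays. The 10 markers of myeloid cells were also all above the array median on every array. Among them *S100a8*, a neutrophil protein gene, read 690055 to 1191079.7 in control and 695259 and 1556334 in *Mef2c*-deficient samples. The 8 measured of 10 T and NK cell markers summed to 10444 to 13150.0 in control, to 5669 on *Mef2c*-deficient replicate 1 and to 31915 on *Mef2c*-deficient replicate 2, where *Cd3e* read 13843 against at most 387 elsewhere. The median of 15 bacterial hybridisation controls stood 1.97 above its mean over the arrays on *Mef2c*-deficient replicate 1, 0.12 above it on replicate 2 and 1.58 to 0.05 below it on the control arrays, on the log2 scale. The part of these differences in the results was not tested. In sorted bulk RNA, fewer cells of a type and less RNA per cell cannot be told apart.

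Proteasome genes mostly had lower values in *Mef2c*-deficient than in control pro-B cells. Of the 48 genes, 23 fell, against 16.7% of all genes, 4 rose, against 9.65% of all genes, and 21 did not pass. The log2 fold change was negative for 43, against 48.7% of all genes, and its median was −1.04 over the 48 and 0.04 over all genes. Among the 46 genes of proteasome proteins, 22 fell, 4 rose and 20 did not pass. Both *Mef2c*-deficient arrays lay below all 3 control arrays for 37 of the 48, against 28.4% of all genes, and above all of them for 4, against 25.9%, while the groups overlapped for 7.

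The proteasome genes are bright on this array, and bright genes as a whole were lower on the *Mef2c*-deficient arrays. When all genes were divided into 10 equal groups by mean level, 31 of the 48 lay in the brightest group, in which 32.8% of genes were called lower and the median log2 fold change was −0.91. Of these 31, 15 fell. Both *Mef2c*-deficient arrays were below all controls for 27 of the 31 and for 62.6% of all genes in that group, and a negative log2 fold change was found for 91.7% of its genes. A further 7 lay in the second brightest group, with 4 lower, where 40.9% of genes were called lower and the median was −1.10. Measured against the median of its own level group, the log2 fold change was lower for 31 of the 48 genes, and the median of this difference was −0.17.

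**Figure D1:**
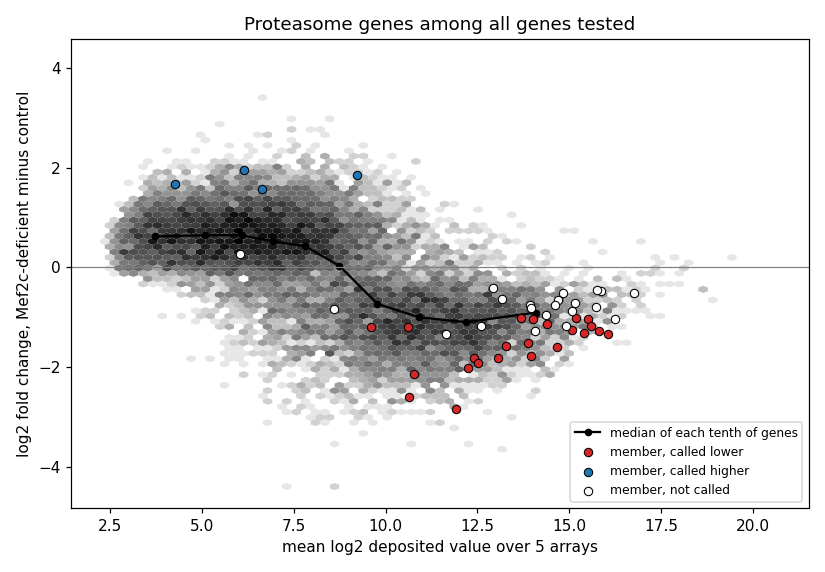
Log2 fold change of each gene, *Mef2c*-deficient minus control (vertical axis), against its mean log2 deposited value over the 5 arrays (horizontal axis). Grey hexagons are all 17325 genes, darker where more genes lie, with genes beyond the plotted range drawn at its edge, the black line joins the medians of 10 groups by level, and circles are the 48 proteasome genes, red where called lower, blue where called higher and white where not called. Most of the 48 lie at the bright end, where the black line itself is near −1.

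Of the 15 standard subunit genes of the core particle, 7 fell and 8 did not pass, all 15 log2 fold changes were negative and the median was −1.03. The brightest level group, in which 32.8% of genes were called lower and 91.7% were negative, held 13 of the 15, and the median difference of the 15 from their level groups was −0.13. The alpha ring forms the gate through which substrates enter. Of its 8 genes, with the testis-type *Psma8* included, 3 fell, none rose, and all 8 log2 fold changes were negative with a median of −0.90. *Psma3* read 73564, 75178 and 43141 on the control arrays and 37416 and 16434 on the *Mef2c*-deficient arrays, a log2 fold change of −1.32 (standard error 0.49, adjusted p = 0.144). *Psma7* read 94039, 81071 and 72697 in control and 44317 and 26236 in *Mef2c*-deficient samples, with −1.27 (standard error 0.33, adjusted p = 0.1). *Psma5* read 65821, 43354 and 42543 in control against 22119.5 and 26889.8 in *Mef2c*-deficient samples, with −1.02 (standard error 0.32, adjusted p = 0.117). For each of these 3 genes both *Mef2c*-deficient arrays lay below every control array, with *Mef2c*-deficient replicate 2 the lowest array for *Psma3* and *Psma7* and replicate 1 for *Psma5*. *Psma2* changed least in the ring, at 72278, 64633 and 66183 in control and 46436 and 51572 in *Mef2c*-deficient samples, and its −0.47 (standard error 0.24, adjusted p = 0.22) did not pass although the groups did not overlap. The remaining *Psma1*, *Psma4*, *Psma6* and *Psma8* had log2 fold changes of −0.77, −0.95, −0.52 and −0.84 and did not pass.

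The structural beta subunits, which carry no active site, gave 2 genes called lower of 4 and a median of −1.04. The brightest level group held 3 of the 4, and 32.8% of its genes were called lower. The median difference from the level groups was −0.13. *Psmb1* read 1166, 1031 and 1031 in control and 340.2 and 651 in *Mef2c*-deficient samples, with a log2 fold change of −1.19 (standard error 0.36, adjusted p = 0.114). *Psmb4* read 64099, 58881 and 63672 in control against 39354 and 23066 in *Mef2c*-deficient samples, with −1.05 (standard error 0.32, adjusted p = 0.116). Neither gene had overlapping groups, and the *Mef2c*-deficient arrays differed from each other more than the 3 control arrays did. *Psmb3* had the smallest change, with 56849, 51327 and 30604 in control and 23481 and 31601 in *Mef2c*-deficient samples. Its groups overlapped, since control replicate 3 read below *Mef2c*-deficient replicate 2, and its −0.71 (standard error 0.38, adjusted p = 0.231) did not pass. *Psmb2* had a log2 fold change of −1.03 at an adjusted p of 0.158 and did not pass.

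**Figure D2:**
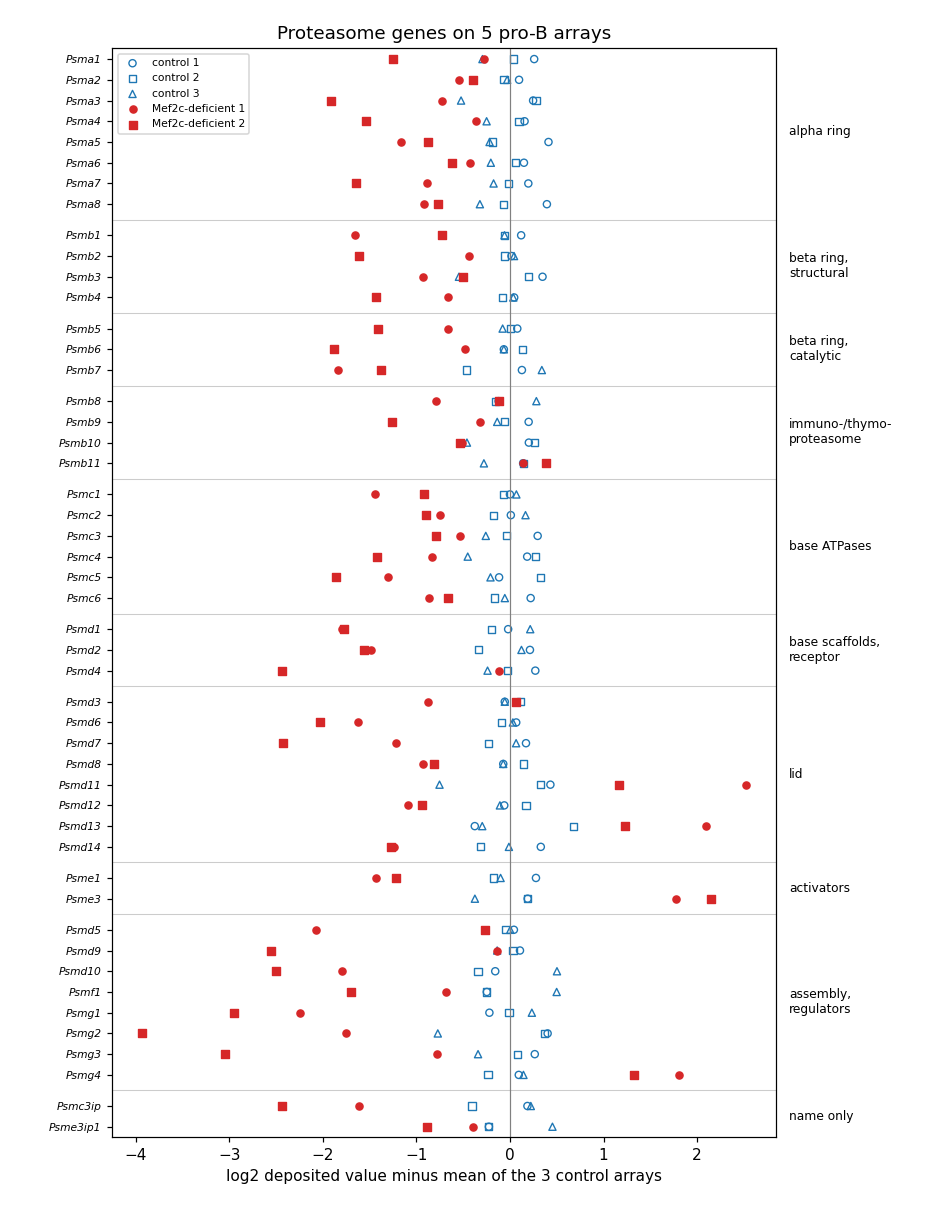
Log2 deposited value of each of the 48 genes on each array, minus the mean of the 3 control arrays (horizontal axis), with genes grouped by their place in the proteasome (vertical axis). Open blue symbols are control arrays and filled red symbols *Mef2c*-deficient arrays. Red symbols lie left of the blue ones for 37 genes and right of them for *Psmd11*, *Psmd13*, *Psme3* and *Psmg4*, and the 2 red symbols are over 1 log2 unit apart for 12 genes.

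Of the 3 constitutive catalytic genes 2 fell, and none of the 3 immunoproteasome genes passed. All of these genes lay in the brightest level group, in which 32.8% of genes were called lower. The median difference from that group was −0.28 for the constitutive and 0.38 for the immunoproteasome genes. *Psmb5*, whose product holds the chymotrypsin-like site, read 23161, 21987 and 20778 in control and 13893 and 8240.3 in *Mef2c*-deficient samples, with a log2 fold change of −1.04 (standard error 0.32, adjusted p = 0.116). *Psmb7*, of the trypsin-like site, read 44629, 29593 and 51734 in control against 11442 and 15752 in *Mef2c*-deficient samples, with −1.61 (standard error 0.36, adjusted p = 0.0935), which is 2.16-fold lower in signal. *Psmb6*, of the caspase-like site, read 40695, 46733 and 40695 in control against 30417 and 11562 in *Mef2c*-deficient samples, and its −1.18 (standard error 0.47, adjusted p = 0.157) missed the threshold at an unadjusted p of 0.0514. No *Mef2c*-deficient array reached the lowest control array for any of these 3 genes, which also held for 62.6% of genes in the brightest level group.

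Of the immunoproteasome genes, *Psmb8*, the counterpart of *Psmb5*, read 57936, 56546 and 76664 in control and 36484 and 57936 in *Mef2c*-deficient samples. The groups overlapped, as *Mef2c*-deficient replicate 2 had the same value as control replicate 1, and the log2 fold change was −0.46 (standard error 0.33, adjusted p = 0.325). *Psmb9*, the counterpart of *Psmb6*, read 76789, 64144 and 60826 in control against 53601 and 27955 in *Mef2c*-deficient samples, with −0.79 (standard error 0.37, adjusted p = 0.197). *Psmb10*, the counterpart of *Psmb7*, read 38971, 40618 and 24638 in control against 23687 and 23455 in *Mef2c*-deficient samples, with −0.52 (standard error 0.32, adjusted p = 0.271). For *Psmb9* and *Psmb10* both *Mef2c*-deficient arrays were below all controls, for *Psmb10* only narrowly below control replicate 3. The median log2 fold change was −0.52 over these 3 genes and −1.18 over *Psmb5*, *Psmb6* and *Psmb7*. *Psmb11*, the thymoproteasome subunit of cortical thymic epithelium, was below the array median on all 5 arrays, at 67.8, 67.8 and 50.7 in control against 67.8 and 80.0 in *Mef2c*-deficient samples.

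The difference between each immunoproteasome gene and its constitutive counterpart was then taken within each array, which removes any factor that scales both genes of a pair alike. Since the probe sets differ in brightness, only the change of this difference between groups has a meaning. *Psmb10* minus *Psmb7* was −0.20, 0.46 and −1.07 on the control arrays and 1.05 and 0.57 on the *Mef2c*-deficient arrays, on the log2 scale. The groups did not overlap, and the mean was 1.08 higher in *Mef2c*-deficient samples (exact two-sided permutation p = 0.2, adjusted over the 3 pairs p = 0.4). *Psmb8* minus *Psmb5* was 1.32, 1.36 and 1.88 in control and 1.39 and 2.81 in *Mef2c*-deficient samples, a difference of 0.58 (exact permutation p = 0.4, adjusted p = 0.4), which turned to −0.13 without *Mef2c*-deficient replicate 2. *Psmb9* minus *Psmb6* was 0.92, 0.46 and 0.58 in control and 0.82 and 1.27 in *Mef2c*-deficient samples, a difference of 0.39 (exact permutation p = 0.4, adjusted p = 0.4). With 3 arrays against 2 the smallest p this test can give is 0.2, so none of the 3 pairs could pass, and a differing response of the immunoproteasome genes was not shown.

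**Figure D3:**
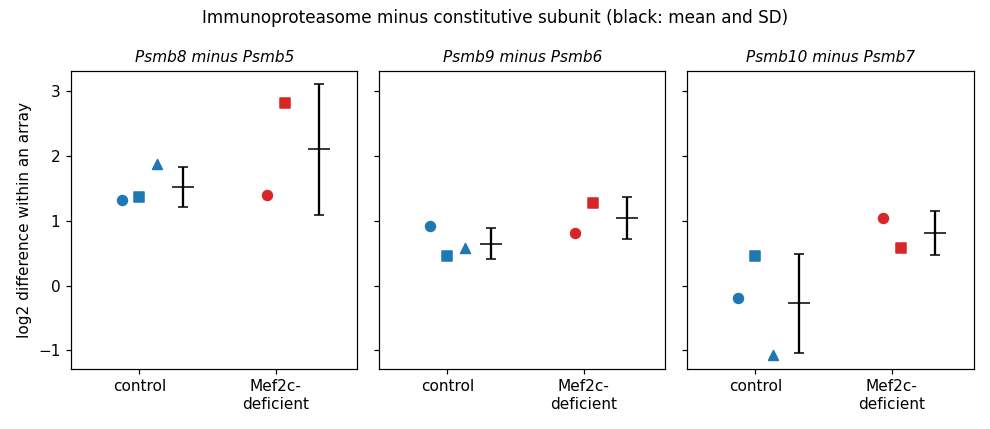
Log2 deposited value of an immunoproteasome gene minus that of its constitutive counterpart within each array (vertical axis), for 3 pairs, in control (blue, 3 arrays) and *Mef2c*-deficient samples (red, 2 arrays), with the mean and SD in black. The groups overlap for *Psmb8* minus *Psmb5* and for *Psmb9* minus *Psmb6*, and are apart for *Psmb10* minus *Psmb7*.

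In the regulatory particle, 9 of 17 genes fell, against 16.7% of all genes and 32.8% in the brightest level group, which held 13 of the 17, and 2 rose, against 9.65% of all genes. The median was −1.13, and −0.22 as a difference from the level groups. The base ATPases, which pull the substrate into the core, gave 3 genes lower of 6, none higher, and a median of −0.98, or −0.07 from the level group, the brightest for all 6. *Psmc5* read 14082, 19155 and 13212 in control and 6188 and 4199.5 in *Mef2c*-deficient samples, with a log2 fold change of −1.58 (standard error 0.32, adjusted p = 0.0907) or 2.14-fold in signal. *Psmc1* read 68304, 65329 and 71648 in control against 25169.6 and 36268 in *Mef2c*-deficient samples, with −1.18 (standard error 0.27, adjusted p = 0.0938). *Psmc4* read 33458, 35535 and 21543 in control against 16527 and 11012 in *Mef2c*-deficient samples, with −1.13 (standard error 0.36, adjusted p = 0.123). All 6 ATPase genes had both *Mef2c*-deficient arrays below the 3 control arrays, as did 62.6% of all genes in their level group. The smallest change was that of *Psmc3*, at 39143, 31138 and 26653 in control and 21985 and 18455 in *Mef2c*-deficient samples, and its −0.66 (standard error 0.29, adjusted p = 0.178) did not pass. *Psmc2* and *Psmc6*, at −0.83 and −0.76, had unadjusted p of 0.0212 and 0.0322 but missed the fold threshold.

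The large scaffolds of the base, *Psmd1* and *Psmd2*, both fell, and with *Psmd4* had a median difference of −0.62 from the level group. *Psmd1* read 25825, 22888 and 30412 in control and 7562 and 7632 in *Mef2c*-deficient samples, with a log2 fold change of −1.79 (standard error 0.26, adjusted p = 0.0895) or 2.36-fold in signal. *Psmd2*, which docks ubiquitin-like shuttle proteins, read 26817, 18360.1 and 25184 in control against 8239.8 and 7837 in *Mef2c*-deficient samples, with −1.53 (standard error 0.28, adjusted p = 0.0897) or 2.08-fold in signal. The 2 *Mef2c*-deficient arrays were close to each other for both scaffolds and far below the lowest control array. *Psmd4*, a ubiquitin receptor, behaved otherwise, with 29478, 23958 and 20694 in control and 22458 and 4516 in *Mef2c*-deficient samples. Its first *Mef2c*-deficient array lay within the range of the controls, with a log2 difference of −0.12 from their mean, and the other had −2.44, so that −1.28 (standard error 0.72, adjusted p = 0.246) did not pass.

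In the lid, 4 of 8 genes were called lower, against 16.7% of all genes and 32.8% in the brightest level group, which held 4 of the 8. Another 2 were called higher, against 9.65% of all genes. The median was −0.94, or −0.04 from the level groups. *Psmd6* read 14704, 13145 and 14344 in control and 4569.8 and 3437 in *Mef2c*-deficient samples, with a log2 fold change of −1.83 (standard error 0.26, adjusted p = 0.0895) or 2.40-fold in signal. *Psmd7*, the partner of the deubiquitinase, read 10169, 7682 and 9452 in control against 3894 and 1682 in *Mef2c*-deficient samples, with −1.82 (standard error 0.43, adjusted p = 0.0948) or 2.40-fold in signal. *Psmd14*, the deubiquitinase of the lid, read 61259, 39189 and 48368 in control against 20632 and 20188 in *Mef2c*-deficient samples, with −1.26 (standard error 0.29, adjusted p = 0.0938). For these 3 genes both *Mef2c*-deficient arrays lay far below the lowest control array. *Psmd12* fell as well, from 16751, 19683 and 16219 to 8213 and 9080.3, with −1.02 (standard error 0.25, adjusted p = 0.0957).

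The lid genes *Psmd11*, a structural subunit, and *Psmd13* were called higher. These calls held under 10 of 16 alternatives for *Psmd11* and 9 of 15 for *Psmd13*. *Psmd11* read 486, 451 and 214 in control and 2067 and 810.2 in *Mef2c*-deficient samples, with a log2 fold change of 1.84 (standard error 0.59, adjusted p = 0.121). *Psmd13* read 9.36, 19.4 and 9.89 in control against 52.0 and 28.6 in *Mef2c*-deficient samples, with 1.66 (standard error 0.48, adjusted p = 0.109), and lay below the array median on all 5 arrays, in a level group with a median of 0.62. Both were above all controls on both *Mef2c*-deficient arrays, and replicate 1 was the higher for each. *Psmd3* and *Psmd8* did not pass, at −0.41 and −0.87. Each gene is read here through 1 probe set, and probe sets differ in brightness, so low intensities of these 2 do not give their transcript level relative to the other lid genes.

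**Figure D4:**
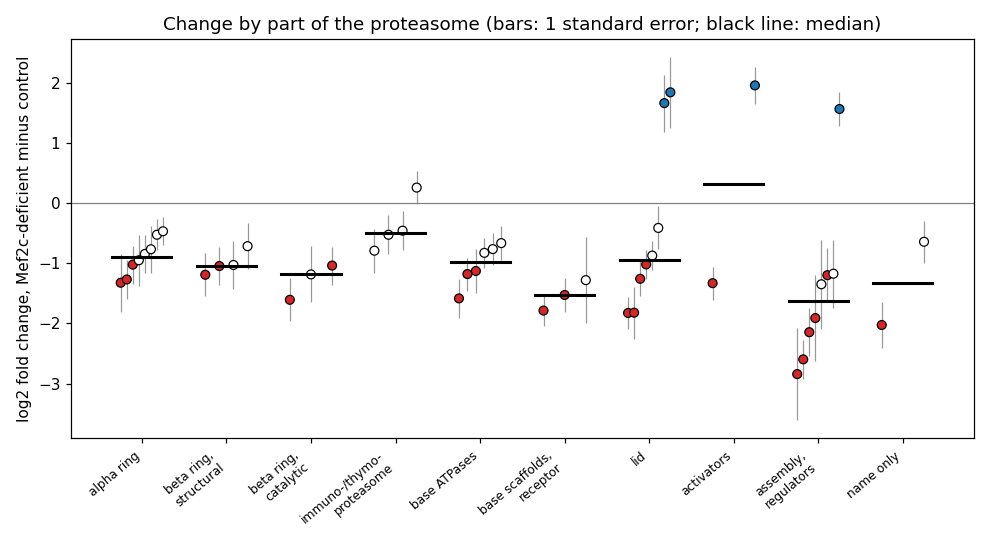
Log2 fold change of each of the 48 genes, *Mef2c*-deficient minus control (vertical axis), by its place in the proteasome (horizontal axis), with 1 standard error as a bar and the median of each group as a black line. Red circles are genes called lower, blue circles genes called higher and white circles genes not called. The medians run from −1.63 for assembly and regulators to −0.49 for the immunoproteasome and thymoproteasome genes, and to 0.32 for the activators, of which 1 fell and 1 rose.

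Activators open the gate of the core without ATP, and of their 2 measured genes 1 was called lower and 1, a dim one, higher. *Psme1*, whose product forms with that of *Psme2* the interferon-inducible cytosolic activator, read 119346, 87244 and 91826 in control and 36374 and 42229 in *Mef2c*-deficient samples, with a log2 fold change of −1.33 (standard error 0.27, adjusted p = 0.0907) or 1.89-fold in signal. The probe set shared by *Psme2* and *Psme2b* read 40819, 32252 and 26841 in control and 13098 and 10956 in *Mef2c*-deficient samples, a log2 difference of −1.45 that cannot be assigned to 1 gene. For both probe sets the higher *Mef2c*-deficient value was below the lowest control value. *Psme3*, the gene of the nuclear activator, rose from 47.4, 47.4 and 32.0 to 142 and 185, with 1.96 (standard error 0.31, adjusted p = 0.0895) and was below the array median on all 5 arrays. Dim genes as a whole had higher values on the *Mef2c*-deficient arrays, and *Psme3* lay 1.31 above the median of its level group.

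Genes of proteasome assembly and regulation had the lowest median among the groups, −1.63. Of the 8 genes 5 were lower, against 16.7% of all genes, and 1 was higher, against 9.65%. Without *Mef2c*-deficient replicate 2 their median was −1.27, above the −1.49 of the base scaffolds and ubiquitin receptor. The brightest level group held none of the 8 and the second brightest, in which 40.9% of genes were called lower, held 4. The median difference from the level groups was −0.53, against −0.62 for the base scaffolds and receptor. *Psmg1* and *Psmg2* encode the partners of a chaperone that starts the assembly of the alpha ring. *Psmg1* read 2808, 3245 and 3845 in control and 689 and 425 in *Mef2c*-deficient samples, with a log2 fold change of −2.60 (standard error 0.33, adjusted p = 0.0895) or 3.48-fold in signal. *Psmg2* read 11300.3, 11065 and 5009 in control against 2535 and 561 in *Mef2c*-deficient samples, with −2.84 (standard error 0.77, adjusted p = 0.105) or 3.92-fold in signal, and its second probe set had a log2 difference of −2.42. Both *Mef2c*-deficient arrays were below the lowest control array for both genes, although *Psmg2* spread widely in each group, with control replicate 3 below the other controls.

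The second chaperone of the alpha ring pairs the products of *Psmg3* and *Psmg4*, of which 1 was called lower and 1, a dim one, higher. *Psmg3* read 11857, 10422 and 7789 in control and 5753 and 1199 in *Mef2c*-deficient samples, with −1.91 (standard error 0.71, adjusted p = 0.147), and most of its fall lay in *Mef2c*-deficient replicate 2. *Psmg4* rose from 69.5, 55.3 and 72.0 to 228 and 164, with 1.57 (standard error 0.29, adjusted p = 0.0897) and was below the array median on all 5 arrays, in a level group with a median of 0.52. Neither gene had overlapping groups.

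Of the chaperones that assemble the base, encoded by *Psmd5*, *Psmd9* and *Psmd10*, only *Psmd10* passed, at 2855, 2513 and 4509.9 in control and 919 and 565 in *Mef2c*-deficient samples, with a log2 fold change of −2.15 (standard error 0.40, adjusted p = 0.0897) or 2.80-fold in signal. For *Psmd9* and *Psmd5* a single *Mef2c*-deficient array carried the difference. *Psmd9* read 5036, 4785 and 4254 in control and 4254 and 795, with replicate 1 at the level of control replicate 3, and −1.35 (standard error 0.74, adjusted p = 0.24). *Psmd5* read 8827, 8328 and 8593 in control and 2037 and 7114, with replicate 2 nearer to the controls, and −1.17 (standard error 0.57, adjusted p = 0.208). *Psmf1*, the gene of a proteasome-binding inhibitor of the core, fell from 1845, 1845 and 3096 to 1361 and 672, with −1.20 (standard error 0.45, adjusted p = 0.146), and this call was the least stable of the 23, kept under 4 of 16 alternatives. *Psmc3ip*, which shares only the name, read 9711, 6440.2 and 9957 in control against 2794 and 1574 in *Mef2c*-deficient samples, with −2.03 (standard error 0.39, adjusted p = 0.0897), and *Psme3ip1* read 9431, 9431 and 15103 in control against 8377 and 5974 in *Mef2c*-deficient samples, with −0.64 (standard error 0.35, adjusted p = 0.239).

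The 2 *Mef2c*-deficient arrays differed more from each other than the controls did for several of these genes. Replicate 2 was the lower for 31 of the 48, and its difference from replicate 1 had a median of −0.44 and ran from −2.42 for *Psmd9* to 1.80 for *Psmd5*, on the log2 scale. The median SD of log2 values over the control arrays was 0.24, a measure that cannot be set directly against a difference between 2 arrays. Markers of T and NK cells, plasmacytoid dendritic cells, erythroid cells and myeloid cells also summed to most on replicate 2. Such sums follow the brightest markers. The median deviation of the markers from their means over the arrays was 1.23, 1.41, 2.17 and 0.47 there, in this order. For the myeloid markers it was 0.50 on control replicate 2. *Zap70* and *Prf1* were lowest on replicate 2, and *Mpo*, *Elane* and *Ctsg* read below control replicates 1 and 2 there. The part of this in the results was not tested. Without *Mef2c*-deficient replicate 2 the median log2 fold change was −0.81 over the 48 and −0.0086 over all genes. These medians were −1.25 and 0.04 without *Mef2c*-deficient replicate 1.

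Genes outside the naming scheme whose products act with the proteasome were read from a list of 33, of which 19 were measured. Of these 14 fell, against 16.7% of all genes, none rose and 5 did not pass, with a median of −1.09. As 10 of the 19 lay in the brightest group by level and 6 in the second brightest, where 32.8% and 40.9% of genes were called lower, the median difference from their own level groups was −0.18. *Pomp*, the chaperone that completes the assembly of the core, read 76939, 89439 and 64750.2 in control and 28057 and 50687 in *Mef2c*-deficient samples, with a log2 fold change of −1.02 (standard error 0.36, adjusted p = 0.137). The deubiquitinases *Usp14* and *Uchl5*, which bind the base, had −1.90 (standard error 0.34, adjusted p = 0.0895) and −1.59 (standard error 0.24, adjusted p = 0.0895). *Nfe2l2*, of the factors that act on the antioxidant response element, read 4808, 4808 and 7463 in control against 2243 and 2724 in *Mef2c*-deficient samples, with −1.17 (standard error 0.32, adjusted p = 0.105). All of these had both *Mef2c*-deficient arrays below the controls, as did 17 of the 19 measured and 62.6% of genes in the brightest level group.

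Among the shuttle proteins that carry ubiquitinated substrates, *Ubqln4* had −2.13 and *Ubqln1* −1.18 as log2 fold change, and *Rad23b* fell from 17399.5, 9797 and 13018 in control to 6827 and 6223 in *Mef2c*-deficient samples. *Vcp*, the segregase that extracts substrates, and its cofactors *Nploc4*, *Ufd1* and *Nsfl1c* had −1.09, −1.02, −1.07 and −1.47. *Akirin2*, of proteasome import into the nucleus, had −1.47, *Txnl1*, a redox protein on the regulatory particle, −1.19, and *Uba6*, a ubiquitin-activating enzyme, −1.28. All of these passed the thresholds. *Sem1*, a small subunit of the lid, did not pass and read 153719, 157439 and 86901 in control and 100919.5 and 196557 in *Mef2c*-deficient samples, with 0.14 (standard error 0.45, adjusted p = 0.823).

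The number of calls moved with the scaling of the arrays. After quantile normalization of the deposited values or after cyclic loess, both of which bring the level-dependent shift towards 0, 4 of the 48 genes were called lower, against 8.57% and 8.35% of all genes, and 4 higher, against 7.93% and 6.75%. The median over the 48 was then −0.34 and −0.17. Centred on 10 housekeeping genes, 4 were called lower, against 3.58% of all genes, and 5 higher, against 43.5%, with a median of −0.19, and these housekeeping genes themselves had 5 of 10 called lower and a median of −0.98 before centring. Centred on array medians, 30 were called lower, against 24.1%, and 4 higher, against 6.16%, with a median of −1.27. These lower calls included *Psmb9*, at −1.02, and *Psmb6*, at −1.42. These centrings shifted the median of all genes from 0.04 to 0.89 and to −0.19. Each centring moves all genes of an array alike. The median of the 48 relative to that of all genes is therefore −1.08 by construction, as without centring. This relative median was −0.34 after quantile normalization and −0.16 after loess. The immunoproteasome and thymoproteasome genes turned to a median of 0.26 after loess and of 0.36 with housekeeping centring, the base ATPases to 0.0099 and the lid to 0.03 after loess, and the medians of the other groups kept their sign under these 4 scalings.

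A single array decided several calls, and the calls lost are listed here. Some genes gained a lower call when an array was left out, as *Psma8* did without control replicate 3. Without control replicate 1 the lower calls of *Psma3*, *Psma5*, *Psmb1*, *Psmb4*, *Psmb5*, *Psmc4*, *Psmf1* and *Psmg3* were lost, and so was the higher call of *Psmd13*. Those of *Psma3*, *Psmb1*, *Psmb4*, *Psmb5*, *Psmc4*, *Psmd12*, *Psmf1*, *Psmg2* and *Psmg3* were lost without control replicate 2, and so was the higher call of *Psmd11*. Without control replicate 3 those of *Psmb1*, *Psmb4*, *Psmf1* and *Psmg3* were lost, and so were the higher calls of *Psmd11* and *Psmd13*. The lower calls of *Psma5*, *Psmb1*, *Psmc1* and *Psmd12* were lost without *Mef2c*-deficient replicate 1, and so were the higher calls of *Psmd11* and *Psmd13*. Without *Mef2c*-deficient replicate 2, *Psma3*, *Psma7*, *Psmb4*, *Psmb5*, *Psmc4*, *Psmf1*, *Psmg2* and *Psmg3* were not called lower.

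The same 4 genes, *Psmg1*, *Psmg2*, *Psmd10* and *Psmc3ip*, were called lower under each of the 4 scalings. *Psmg1*, *Psmd10* and *Psmc3ip* were called lower under all 16 alternatives run, and *Psmg2* under 13 of 16. *Psme3* and *Psmg4* were called higher under all 15 alternatives that tested them, which refitted the same arrays and add no further support. The study's methods excluded probe sets called absent or marginal in more than 4 replicates. If the deposited table was filtered so, dim genes could be in it only through the samples where they are high. At a fold of 2 in signal, 11 of the 48 genes were called lower, against 10.6% of all genes, namely *Psmb7*, *Psmc5*, *Psmd1*, *Psmd2*, *Psmd6*, *Psmd7*, *Psmd10*, *Psmg1*, *Psmg2*, *Psmg3* and *Psmc3ip*, and 4 higher, against 4.34%.

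**Figure D5:**
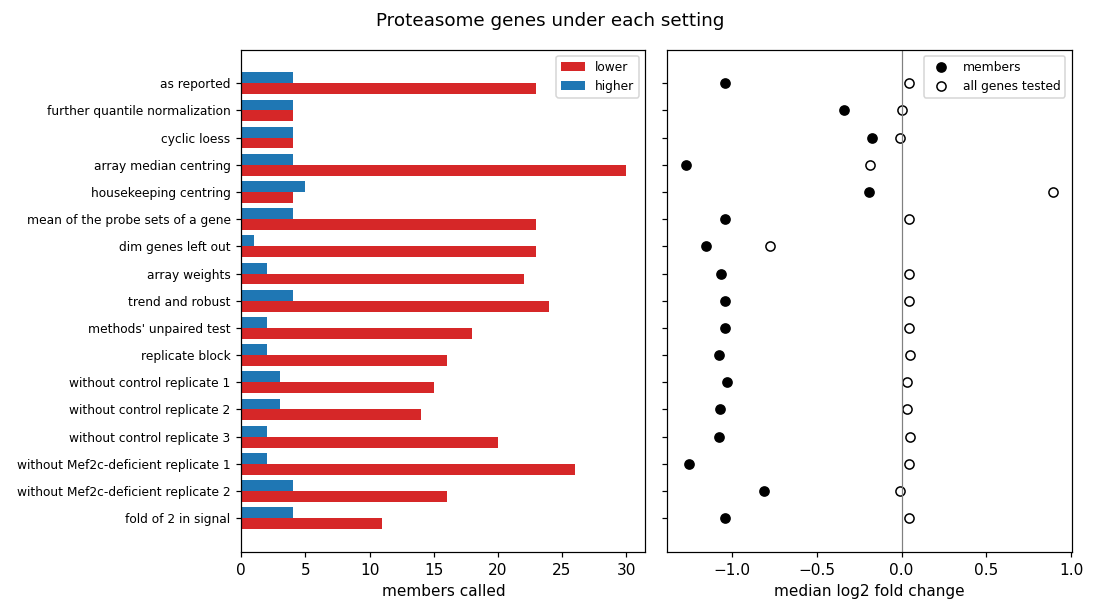
Number of the 48 proteasome genes called lower (red) and higher (blue) under each setting (left, horizontal axis in genes) and the median log2 fold change of the 48 genes (filled) and of all genes tested (open) under the same setting (right). The number called lower runs from 4 after quantile normalization, loess or housekeeping centring to 30 with array median centring, and the median of the 48 genes is below 0 in every row.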

How the data were processed

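Pro-B RNA of 3 control and 2 *Mef2c*-deficient samples was measured on 5 arrays. The authors made the deposited intensities by robust multiarray averaging (RMA), and the submitters' processing notes name RMA and limma. RMA adjusts background, equalises the arrays' quantiles and summarises the probes of each probe set. In the deposited table the quantiles were not equal. The first quartile was 38.7 to 42.9 on the control arrays and 65.4 and 52.8 on the *Mef2c*-deficient arrays. The third quartile was 1475 to 1859 on the control arrays and 1074 and 973 on the *Mef2c*-deficient arrays. Of 23835 probe sets in the deposited table, 17623 have 1 gene symbol, 516 have several and 5696 have none listed. The deposited values reach 2322555, above the 65535 of a 16-bit scanner, and their natural logarithms run from 1.15 to 14.66. For this report log2 of the deposited intensity was fitted with limma 3.58.1 in R 4.3.3 over all 17325 genes, control against *Mef2c*-deficient, with no covariate and Benjamini-Hochberg adjustment over all genes. Genes were called at a deposited fold of 2 or more where the unadjusted p was 0.05 or less. Pair differences were tested by exact two-sided permutation. The fit was tested on simulated data. Arrays have no read depth, and their number limits the precision. Values are per array for the catalytic genes, *Psme1*, *Psme2*, each called gene and the lowest and highest of each group, and called partners are named. *Sem1* and *Psmd5*, *Psmd9* and the non-members of the class I list were added after their values were seen. All members and gene lists were chosen with earlier results of these data known. All 48 symbols matched RefSeq. Alternatives covered normalization, centring, thresholds, dim genes, array weights, variance model, the methods' test, probe sets, membership, a replicate block and leaving out each array.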

Additional observations from a re-analysis of the deposited data

How the results depend on the processing

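The 23 lower calls became 4 after quantile normalization, after loess and with housekeeping centring, and 11 with the fold threshold of 2 applied to signal. The 4 higher calls became 1 with dim genes left out, which removed 3 of them from the test, and 2 with array weights, with the methods' unpaired test or with the replicate block. The median of −1.04 became −0.34 after quantile normalization, −0.17 after loess, −1.27 with array median centring and −0.19 with housekeeping centring. Leaving out each array in turn gave 14 to 26 lower calls (15 without control replicate 1 and 14 without control replicate 2), 2 to 4 higher calls (2 without control replicate 3 or *Mef2c*-deficient replicate 1) and medians of −1.25 to −0.81. *Psmb8* minus *Psmb5* ran from −0.13, without *Mef2c*-deficient replicate 2, to 1.29, *Psmb9* minus *Psmb6* from 0.17 to 0.62 and *Psmb10* minus *Psmb7* from 0.68 to 1.45. Counts of adjusted p under 0.05 among the 48 were 0 except without *Mef2c*-deficient replicate 1 (12), without replicate 2 (7) and with housekeeping centring (9), and an arm of 1 array was assumed to vary like the other. The cause was not tested beyond the filter on dim genes.

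Under the alternatives the sign turned in 16 of the 48 genes, 10 after quantile normalization, 15 after loess, 13 with housekeeping centring and *Psmd3* without *Mef2c*-deficient replicate 1 (0.06), and none of the 16 had been called. *Psma1*, *Psma4*, *Psma6*, *Psma8*, *Psmc2*, *Psmc6*, *Psmd3* and *Psmd8* were among them, with values of 0.0058 to 0.61. Of the other 8, after quantile normalization, loess and housekeeping centring in this order, *Psma2* had 0.045, 0.41 and 0.38, *Psmb8* 0.11, 0.42 and 0.39, *Psmb10* 0.26, 0.42 and 0.33, *Psmc3* 0.17, 0.29 and 0.19 and *Psme3ip1* 0.27, 0.38 and 0.21. After loess and housekeeping centring *Psmb3* had 0.21 and 0.14 and *Psmb9* 0.095 and 0.060, and *Psmb11* had −0.22 after quantile normalization and −0.32 after loess. The other settings gave 22 lower and 4 higher calls without the name-only genes, the latter set without both names chosen after seeing the data, 23 and 4 with probe sets averaged, 24 and 4 with a variance trend and 22 lower with array weights, 18 lower with the methods' test and 30 and 4 with array medians. With the replicate block, in which control replicate 3 has no partner, 16 were called lower and 2 higher at a median of −1.08. The deviations of same-numbered arrays from their group means correlated over genes at 0.122 and −0.012. The deviations of 2 arrays mirror each other, so control replicate 1 had 0.122 with one *Mef2c*-deficient array and −0.122 with the other. These values therefore cannot decide whether same-numbered arrays are pairs. The main fit did not take them as pairs. The arrays, 3 against 2, and probe sets near background limit all of these values.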

Other observations

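Of 15 listed genes of MHC class I antigen presentation outside the proteasome, 12 were measured. Of these 3 fell, against 16.7% of all genes, and none rose. The median log2 fold change was −0.48, or 0.26 above the medians of the genes' level groups, and 8 of the 12 were negative. *H2-D1* had the largest positive value, 1.46 (standard error 0.70, adjusted p = 0.206 from limma), and did not pass. It read 2088, 2606 and 1421 in control and 11362 and 2606 in *Mef2c*-deficient samples. *Tap1*, *B2m* and *Tapbp* had 0.74, 0.47 and 0.35. *Nlrc5*, the transactivator of class I genes, read 7292, 5638 and 8163 in control and 3081 and 1759 in *Mef2c*-deficient samples, with −1.58 (standard error 0.36, adjusted p = 0.0938) from limma. *Erap1*, the peptidase that trims peptides in the endoplasmic reticulum, read 4922, 2910.1 and 2910.1 in control against 1828 and 1002 in *Mef2c*-deficient samples, with −1.36 (standard error 0.42, adjusted p = 0.118), and *Canx*, the chaperone calnexin, 474, 826 and 543 in control against 183 and 211 in *Mef2c*-deficient samples, with −1.60 (standard error 0.34, adjusted p = 0.0907). *B2m*, the light chain of class I molecules, did not pass and read 359418, 328019.7 and 538604 in control and 388459 and 787532 in *Mef2c*-deficient samples, with overlapping groups. *Tap1*, of the peptide transporter and adjacent to *Psmb8* and *Psmb9*, did not pass either and was dim, at 16.3, 20.6 and 16.9 in control against 29.1 and 30.4 in *Mef2c*-deficient samples. The list was chosen with earlier results of these data known.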
